A study of Mus musculus with 9 samples.

Results

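The genes described here are 41 mouse genes for the uptake, activation, storage and mitochondrial oxidation of long-chain fatty acids. They are listed by name for their place in the pathway, and the rule uses no measured value. The list, like the other gene lists below, was nevertheless chosen with earlier results of these data known. All 41 were found among the 53465 gene IDs of the count files, and all 41 were among the 13825 genes with enough counts to test. The mice were of the immunodeficient NOD-SCID strain, and heart RNA was sequenced. The labels call the tissue of all 3 groups the infarct border zone, which is the tissue next to an infarct. Sham hearts had no ligation, and the labels do not say which region of them was taken. One group had sham surgery, another had coronary artery ligation, which starves a stretch of ventricle of blood, and the last had ligation with implantation of FOXO3-GE-MPCs. Each group has 3 libraries, called sham, ligation and cells below. The labels do not spell out what GE or MPC stand for, the species of the cells, or the animals' age and sex. They also give neither the time after surgery nor the number of animals behind a library. No group received cells without the FOXO3 modification, so implantation and modification cannot be told apart. The source field of cells replicates 2 and 3 names other FOXO members, whereas the titles and treatment fields of both name FOXO3 and were followed.

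Fatty acids are the main fuel of the adult heart. Lipoprotein lipase on the capillary wall frees them from circulating triglyceride, CD36 and fatty acid transport proteins take part in their entry into the cell, and fatty acid binding proteins carry them through the cytosol. Acyl-CoA synthetases couple them to coenzyme A, and the carnitine shuttle moves the acyl group into mitochondria under inhibition by malonyl-CoA. There the beta-oxidation spiral shortens the chain and passes electrons through the electron transfer flavoprotein to the respiratory chain. Excess acyl-CoA is stored as triglyceride in lipid droplets, from which lipases release it again. Many of these genes are known targets of PPAR and estrogen-related receptors with the coactivator PGC-1. Lower expression of fatty acid oxidation genes is a known feature of failing and infarcted hearts.

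The libraries held between 4549268 and 7515052 gene counts, the shallowest and the deepest both being ligation libraries. Levels are given as CPM (gene counts relative to library size), scaled with TMM factors, which set the median gene to about 0 change. No pair of replicates was as alike as sampling noise alone would leave it. Nothing in the labels says that replicates came from separate animals, so the p-values measure the spread between these libraries, which may be technical. The file headers give sham replicates 1 and 2 a common name stem, and likewise ligation replicates 2 and 3. The labels do not explain it. Mitochondrially encoded genes took 19.1% to 19.9% of gene counts in sham, 12.5% to 13.9% in ligation and 14.28% to 14.34% with cells. The 10 cardiomyocyte markers summed to 61023 to 63026 CPM in the sham libraries, 47950.0 to 50455 after ligation and 47815 to 48915 with cells. All 10 were detected in each library.

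Most of the fatty acid genes were lower after ligation. Against sham, 29 of the 41 were lower, 2 were higher and 10 did not pass an adjusted p of 0.05 in the quasi-likelihood test of edgeR (p adjusted by Benjamini-Hochberg over all 13825 genes). Over all genes tested, 38.2% were called, 18% lower and 20.1% higher. The median log2 fold change was -0.43 for the 41 genes and 0.01 for all genes. With library totals in place of TMM factors it was -0.238 for the 41 genes, where the median of all genes was 0.197. In 30 of the 41 genes every ligation library was below every sham library, and in 2 every one was above, against 22.6% and 25% of all genes. The falls reached at least 2-fold in 8 genes: Acot1, Acsl6, Cpt1b, Etfb, Acot2, Hadh, Acaa2 and Plin5. Of these, Cpt1b and Etfb are uncertain, because other gene models overlap most of their exon bases. In bulk tissue, fewer cells of a type and less RNA per cell cannot be told apart.

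With cells, part of the pathway was higher than after ligation alone. By the same edgeR test 16 genes were higher, 0 were lower and 25 did not pass, where 9.87% of all genes were called, 4.19% higher and 5.69% lower. At an unadjusted p under 0.05, 20 of the 41 were higher and 2 lower, against 10.8% and 11.9% of all genes. DESeq2 called 16 higher and 0 lower, against 3.18% and 4.47% of all genes. The median log2 fold change was 0.18, against 0.00195 over all genes. None of the 16 rises reached 2-fold. The cells libraries were all above the ligation libraries in 20 genes and all below in 1, against 13.2% and 14% of all genes. This comparison shares the ligation libraries with the first one, so an error in them enters both with opposite sign.

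The summed level of the 41 genes was 21258, 20603 and 21557 CPM in the sham libraries, 15490.0, 15153 and 14398 after ligation and 17108, 17128 and 16992 with cells. The 3 groups did not overlap, and the cells libraries lay between the other two groups. Ligation replicate 3 had the lowest sum of all 9 libraries. It also had the lowest share of mitochondrially encoded counts, 12.5%, and the part of that share in the result was not tested beyond removing those genes. With mitochondrially encoded genes removed before scaling, 32 and 16 of the 41 were called in the 2 comparisons, in place of 31 and 16. As a share of the counts of nuclear-encoded genes, which needs no scaling between libraries, the 41 genes took 2.42% ± 0.0579 (SD, n = 3) in sham, 1.81% ± 0.0538 after ligation and 2.05% ± 0.00726 with cells.

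**Figure D1:**
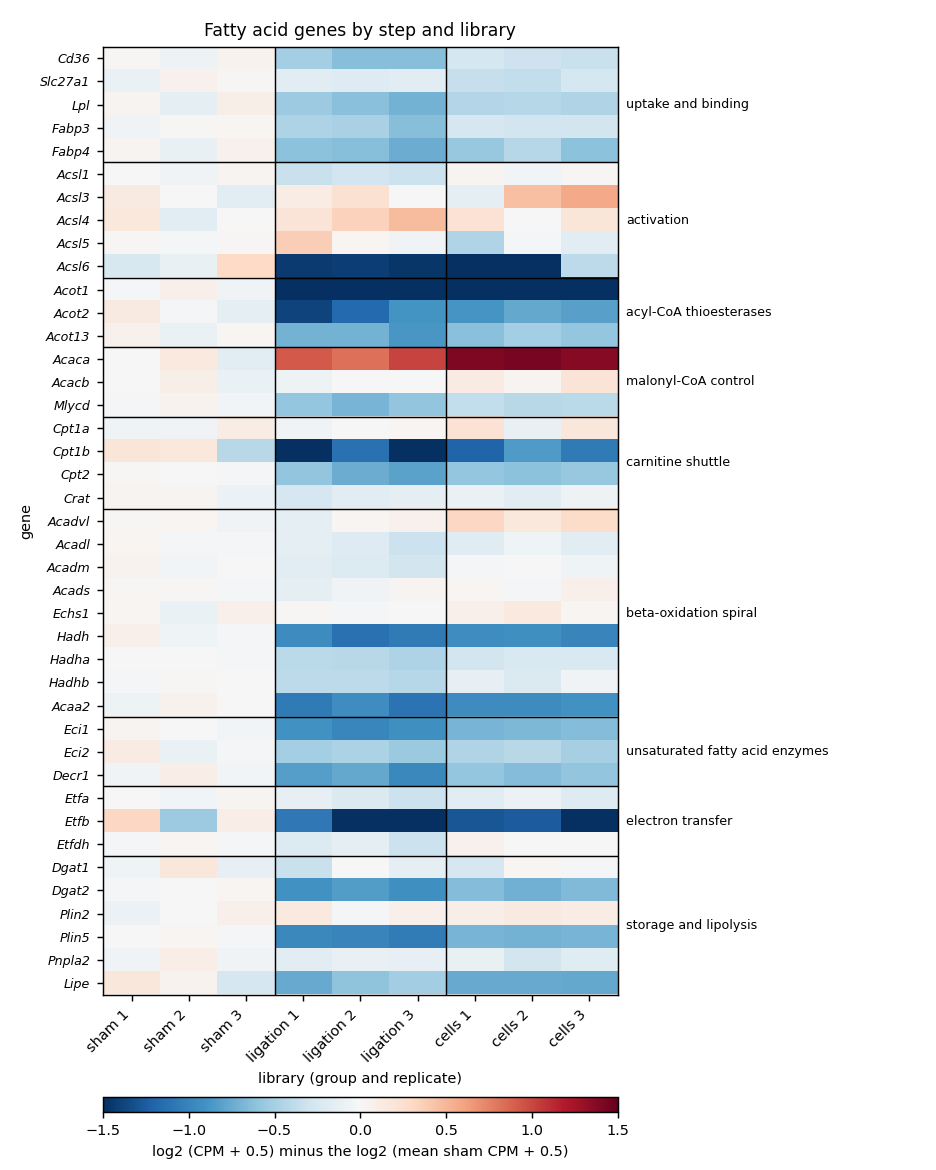
Heat map of the 41 genes, in rows grouped by step, in the 9 libraries, in columns. Colour gives the log2 CPM minus that of the sham mean, blue for lower and red for higher, and is cut off at the ends of the colour bar. Blue fills most rows of the ligation libraries and is paler with cells in rows such as Cd36, Fabp3 and Plin5, Acaca is red in all 6 ligated libraries, and Acot1 is at the dark end in all 6.

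Each step was summed over its genes and set against its sham mean. After ligation the sums ranged from 55.6% ± 2.25 (SD, n = 3) of sham for the acyl-CoA thioesterases to 92.1% ± 1.76 for malonyl-CoA control. The unsaturated fatty acid enzymes stood at 56.01% ± 1.67 and uptake and binding at 66.5% ± 3.56. With cells those values were 64.5% ± 2.49, 107% ± 3.11, 65.3% ± 0.539 and 77.1% ± 0.930. The beta-oxidation spiral went from 76.9% ± 1.996 after ligation to 86.1% ± 0.703 with cells, and storage and lipolysis from 73.5% ± 1.07 to 75.99% ± 2.04. Storage was the step in which the ligation and cells libraries overlapped. These sums are carried by the genes with most counts, Lpl, Fabp3 and Cd36 in the uptake step.

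**Figure D2:**
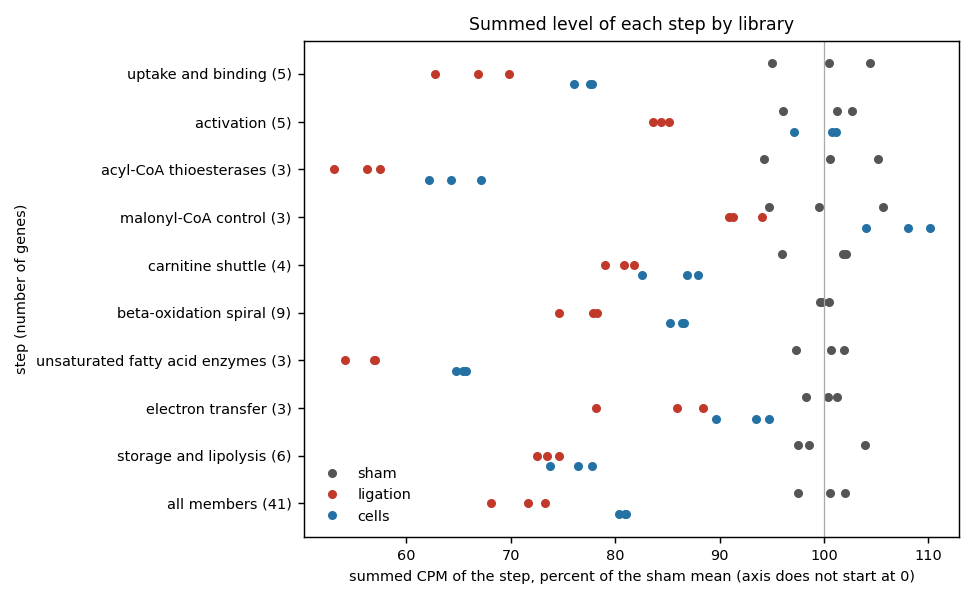
Summed CPM of each step in each library, as a percent of the sham mean of that step, with the number of genes in brackets; points are single libraries and the axis does not start at 0. The ligation points lie left of the sham points in all 9 steps, and the cells points of activation reach the sham points, at 99.7% on average.

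Levels differed widely between the genes. Per kilobase of annotated exon, the highest mean levels in sham were those of Fabp3 with 4098 CPM per kb, Acadl with 567, Cd36 with 546 and Acaa2 with 509. The lowest were Acsl6 with 0.434, Acaca with 1.14 and Acsl3 with 1.44. Some counts are uncertain because sequence is shared with other genes, and the counting settings are not given in the sources used here. Cpt1b shares 81.4% of its exon bases with the annotated gene Gm44502, Etfb 58.2% mostly with Gm45233, and Acadvl 42.9% with Dvl2 on the other strand. Of the 31-base words of their transcripts, Fabp3 shares 50.1% with other genes, Acot2 37.8%, Acaca 33.5%, Hadhb 23.7% and Acot1 22.8%. Without the 12 genes that share at least 10% of exon bases or words, 1 gene was higher and 20 of 29 were lower after ligation. Among these 29, 12 were higher and 0 lower with cells against ligation, and 0 were higher and 17 lower with cells against sham. Acaca and Acadvl, called higher in the last comparison, are among the 12 left out.

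Since many of the genes fell together, the promoters were read for the elements of the receptors named above, as a description only. RefSeq promoter sequences (build GRCm38.p6) matched 32 of the 41 genes. The 250 bases before each start were searched on both strands. PPAR with its partner RXR is known to bind 2 copies of the half-site AGGTCA spaced by 1 base. An exact copy of that repeat was in 0 of the 32 promoters and in 0.0407% of all 27025 genes with a promoter in the table. With up to 2 mismatches it was in 4 of 32 (12.5%), against 3.72% of all. The estrogen-related receptor element TCAAGGTCA, which contains the half-site, was in 1 of 32 (3.125%), against 0.422% of all. A single AGGTCA, which either longer element can contain, was in 25% and 15.8%. The sequences below show the match in Acsl6 to TCAAGGTCA and those of Cd36, Etfa and Plin2 to the repeat, 5′ to 3′ on the gene's strand with the matched bases in capitals. All 4 matches lie on the opposite strand and so read as the reverse complement. They come from chr11:54303617-54303705 (plus strand), chr5:17835907-17835999, chr9:55512268-55512360 and chr4:86670232-86670309 (minus strand).
Acsl6: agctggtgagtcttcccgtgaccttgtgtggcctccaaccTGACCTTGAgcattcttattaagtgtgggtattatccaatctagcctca
Cd36: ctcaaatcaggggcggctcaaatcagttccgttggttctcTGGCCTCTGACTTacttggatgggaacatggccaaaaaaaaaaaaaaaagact
Etfa: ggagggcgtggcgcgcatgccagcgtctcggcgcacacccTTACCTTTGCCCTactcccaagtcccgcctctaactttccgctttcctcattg
Plin2: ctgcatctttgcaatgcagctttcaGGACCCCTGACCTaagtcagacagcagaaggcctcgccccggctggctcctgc
The 4 genes did not share a response. Acsl6, Cd36 and Etfa were lower after ligation, by 1.75, 0.59 and 0.22 on the log2 scale, and Plin2 did not pass (log2 fold change 0.063, SE 0.0716, edgeR adjusted p 0.525). One more match to the repeat, in Echs1, overlaps an annotated exon and is not printed.

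All 5 genes of uptake and binding were lower after ligation, and 3 of them, Cd36, Lpl and Fabp3, were higher with cells than after ligation alone. Over all genes 18% were lower after ligation and 4.19% higher with cells. Cd36 (ENSMUSG00000002944, chr5:17781690-17888801, GRCm38), the fatty acid translocase, was at 1992, 1857 and 2036 CPM in the 3 sham libraries, 1383, 1262 and 1256 after ligation and 1636, 1587 and 1559 with cells. The 3 groups did not overlap, with the cells libraries in the middle. Cd36 fell after ligation (log2 fold change -0.59, SE 0.0430, edgeR adjusted p 7.09e-10) and was higher with cells (log2 fold change 0.29, SE 0.0429, edgeR adjusted p 7.97e-05). Lpl (ENSMUSG00000015568, chr8:68880491-68907448), the lipase that frees fatty acids in the capillary, was at 4107, 3626 and 4263 CPM in sham, 2740.1, 2587 and 2444 after ligation and 2937, 2967 and 2922 with cells. Again no 2 groups overlapped. Lpl fell by 0.63 on the log2 scale after ligation (SE 0.0475, edgeR adjusted p 1.37e-09). Its rise of 0.18 with cells (SE 0.0473, edgeR adjusted p 0.0152) lost its call without ligation replicate 2 (adjusted p 0.0558) or ligation replicate 3 (0.0802).

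Fabp3 (ENSMUSG00000028773, chr4:130308595-130315463), the heart-type binding protein, had 3250.1, 3414 and 3453 CPM in sham, 2442, 2412 and 2172 after ligation and 2823, 2757 and 2776 with cells, again with 3 separate groups. Its log2 fold changes were -0.53 after ligation (SE 0.0395, edgeR adjusted p 1.18e-09) and 0.25 with cells (SE 0.0394, edgeR adjusted p 0.000193). Fabp3-ps1, with which Fabp3 shares sequence, was at 18.01 ± 3.40, 13.9 ± 1.01 and 15.3 ± 1.29 CPM (SD, n = 3) and was not called. Fabp4, the binding protein of adipocytes, macrophages and capillary endothelium, fell by 0.66 on the log2 scale after ligation. It went from 1554 ± 100.3 to 980.4 ± 44.8 CPM (SD, n = 3), and stood at 1072 ± 72.7 with cells. With cells its libraries overlapped those of ligation (log2 fold change 0.13, SE 0.0518, edgeR adjusted p 0.132), though with no filter on low counts it passed (adjusted p 0.0186). Slc27a1, fatty acid transport protein 1, had the opposite sign with cells. Its levels were 114, 128 and 124 CPM in sham, 109, 106 and 108 after ligation and 96.03, 93.8 and 102 with cells, so the cells libraries were the lowest 3 of the 9. It fell after ligation (log2 fold change -0.18, SE 0.0617, edgeR adjusted p 0.0266) and did not pass with cells (log2 fold change -0.15, SE 0.0619, edgeR adjusted p 0.152). The call after ligation was lost without sham replicate 2 (adjusted p 0.0990), sham replicate 3 (0.0737) or ligation replicate 2 (0.0879). With library totals in place of TMM factors the change was 0.0088, and with no filter on low counts the adjusted p was 0.0584.

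Among the 5 long-chain acyl-CoA synthetases, which trap fatty acids as acyl-CoA, 2 were lower and 1 higher after ligation, and 1 was higher with cells. Over all genes 38.2% were called after ligation and 9.87% with cells, and no step was tested against those shares. Acsl1 (ENSMUSG00000018796, chr8:46471037-46536051), the main form of the heart, was at 462, 441 and 472 CPM in sham, 364, 375 and 368 after ligation and 473, 444 and 464 with cells. The ligation libraries stood below all others, while sham and cells overlapped. Acsl1 fell after ligation (log2 fold change -0.31, SE 0.0452, edgeR adjusted p 1.19e-05), was higher with cells (log2 fold change 0.32, SE 0.0451, edgeR adjusted p 5.76e-05) and did not pass between cells and sham (log2 fold change 0.0055, SE 0.0449, edgeR adjusted p 0.935). With library totals it was called higher with cells than in sham (0.16, adjusted p 0.00537). Acsl4, which prefers arachidonic acid, went the other way after ligation. It was at 24.4, 19.4 and 21.7 CPM in sham, 25.1, 27.9 and 30.5 after ligation and 25.5, 21.9 and 24.9 with cells. Its rise after ligation (log2 fold change 0.36, SE 0.115, edgeR adjusted p 0.0167) was lost without sham replicate 2 (adjusted p 0.0896) or ligation replicate 3 (0.126), and when libraries with a common header stem were summed (0.0520).

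Acsl6, better known from brain, had few counts, at 3.56, 3.95 and 5.40 CPM in sham, 1.28, 1.30 and 1.25 after ligation and 1.13, 1.11 and 3.17 with cells. It fell after ligation (log2 fold change -1.75, SE 0.404, edgeR adjusted p 0.00170), and cells replicate 3 stood above the other cells libraries and just below the lowest sham library. Without cells replicate 3 its log2 difference between cells and ligation turned from 0.49 to -0.18. Acsl5 was called in neither comparison. Of the 9 libraries the highest was ligation replicate 1, at 49.4 CPM, and the lowest cells replicate 1, at 27.9 CPM. Without cells replicate 2 it was lower with cells than after ligation (log2 fold change -0.41, edgeR adjusted p 0.0309), against -0.31 (adjusted p 0.0909) with all libraries, and with no filter on low counts it passed too (adjusted p 0.0308). Acsl3 did not pass, at 6.25 ± 0.693, 6.82 ± 0.565 and 7.97 ± 2.03 CPM (SD, n = 3) in sham, ligation and cells.

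Acyl-CoA thioesterases split acyl-CoA back into fatty acid and coenzyme A, and all 3 fell after ligation, where 18% of all genes were called lower. Acot1 (ENSMUSG00000072949, chr12:84009490-84018371), a cytosolic form known to respond to PPAR alpha, fell most of the 41 genes. It had 11.4, 12.2 and 11.1 CPM in sham, 0.639, 1.88 and 1.88 after ligation and 3.12, 3.05 and 2.74 with cells, from 3, 13 and 15 counts in the ligation libraries. The 3 groups did not overlap. Its log2 fold change was -2.87 after ligation (SE 0.275, edgeR adjusted p 4.46e-08), and the difference of 0.92 with cells did not pass (SE 0.328, edgeR adjusted p 0.0858). Acot2, its mitochondrial neighbour on chromosome 12, was at 63.4, 56.7 and 52.5 CPM in sham, 21.7, 25.3 and 30.6 after ligation and 30.9, 33.7 and 32.4 with cells. The cells libraries were just above the ligation libraries. It fell by 1.12 on the log2 scale after ligation (SE 0.105, edgeR adjusted p 3.12e-08) and did not pass with cells (log2 fold change 0.30, SE 0.110, edgeR adjusted p 0.0986) unless ligation replicate 3 was left out (adjusted p 0.0197). Reads of Acot1 and Acot2 may be divided between them, since they share sequence with each other.

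Acot13, a mitochondrial thioesterase of another family, was at 347, 309 and 339.9 CPM in sham, 203, 203 and 180.4 after ligation and 215, 233 and 223 with cells. It fell by 0.77 on the log2 scale after ligation (edgeR adjusted p 1.90e-09) and passed narrowly with cells (log2 fold change 0.20, SE 0.0595, edgeR adjusted p 0.0419). That call was lost with library totals (adjusted p 0.0696), with a replicate block in the fit (0.0629) and in 5 fits that left out 1 library. Its adjusted p was 0.0590 and 0.210 without ligation replicates 2 and 3, and 0.0512, 0.147 and 0.0943 without cells replicates 1, 2 and 3.

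**Figure D3:**
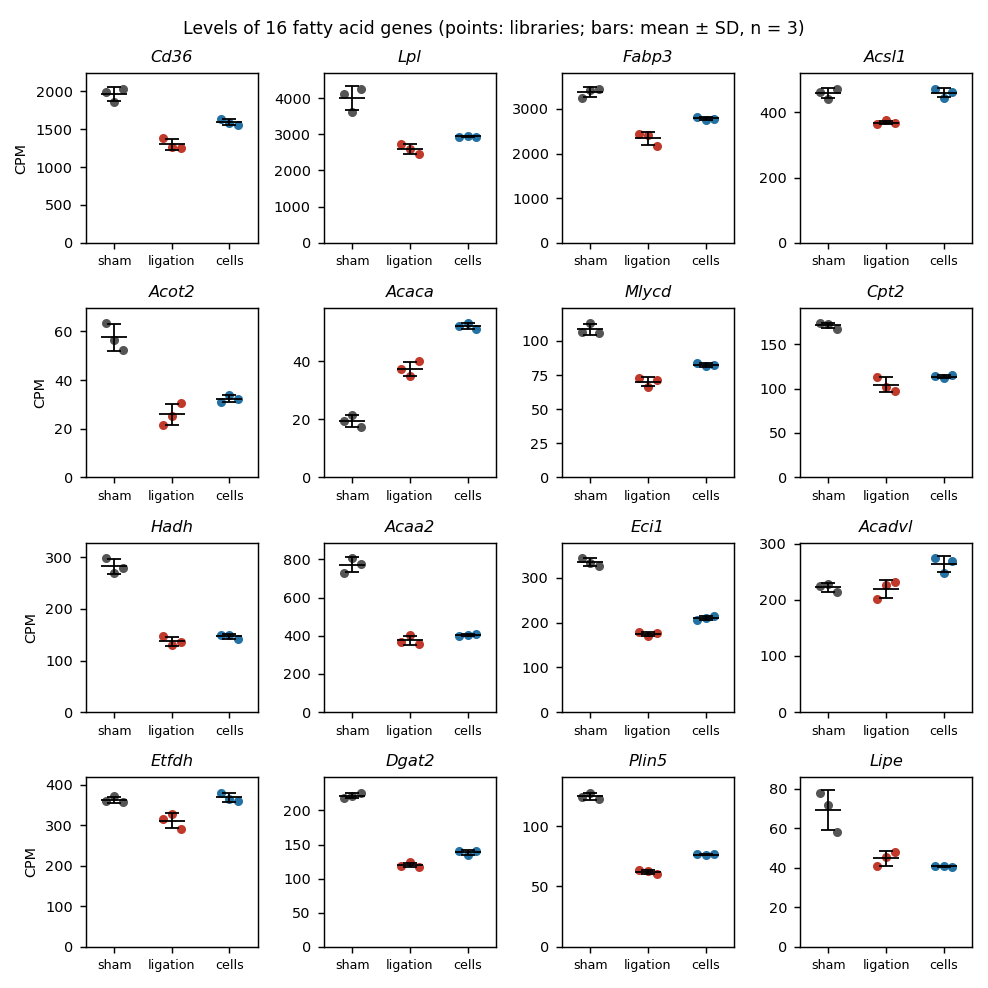
Levels of 16 of the 41 genes in CPM, 1 panel per gene with its own axis from 0; points are libraries and bars the mean ± SD of 3. In Cd36, Lpl and Fabp3 the cells points lie between sham and ligation, in Hadh and Acaa2 they lie near ligation, and in Acaca they are highest, at 52.1, 52.99 and 51.1 CPM.

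Malonyl-CoA blocks entry into the carnitine shuttle. It is made by the acetyl-CoA carboxylases Acaca and Acacb and removed by malonyl-CoA decarboxylase, Mlycd. The 2 called genes moved in opposite directions after ligation. Acaca (ENSMUSG00000020532, chr11:84129672-84401651), the cytosolic form that also feeds fatty acid synthesis, was at 19.4, 21.6 and 17.5 CPM in sham, 37.3, 35.02 and 39.9 after ligation and 52.1, 52.99 and 51.1 with cells. The groups formed 3 separate steps with sham lowest and cells highest. Acaca rose after ligation (log2 fold change 0.94, SE 0.0977, edgeR adjusted p 1.38e-07) and was higher again with cells (log2 fold change 0.47, SE 0.0843, edgeR adjusted p 0.000667). The annotated gene Gm5182, with which it shares sequence, had at most 6.88 CPM in any library. Gm5182 was itself called higher after ligation (log2 fold change 1.34, SE 0.269, edgeR adjusted p 0.000455). It did not pass between cells and ligation (log2 fold change -0.0015, SE 0.225, edgeR adjusted p 0.998). Its part in the rise of Acaca was not tested. Mlycd (ENSMUSG00000074064, chr8:119394878-119411102) was at 107, 113 and 106 CPM in sham, 72.4, 66.6 and 71.6 after ligation and 84.1, 81.4 and 81.96 with cells, with no overlap between groups. It fell by 0.63 on the log2 scale after ligation (edgeR adjusted p 8.35e-08) and was higher with cells (log2 fold change 0.23, SE 0.0633, edgeR adjusted p 0.0204).

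The rise of Mlycd with cells was lost without ligation replicate 2 (edgeR adjusted p 0.123), cells replicate 1 (0.0863) or cells replicate 3 (0.0604). It also missed the threshold when libraries with a common header stem were summed (0.0504). Acacb, the carboxylase at the outer mitochondrial membrane and the main form of the heart, did not pass in any comparison with TMM factors. Its levels were 165, 174 and 154 CPM in sham, 156, 165 and 163 after ligation and 179, 169 and 188 with cells. The cells libraries were above those of ligation but overlapped those of sham (log2 fold change 0.15, SE 0.0597, edgeR adjusted p 0.132 against ligation). With library totals Acacb was higher after ligation (log2 fold change 0.16, adjusted p 0.0367), where TMM factors gave -0.023.

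Of the 4 carnitine shuttle genes 3 fell after ligation, where 18% of all genes were called lower. Between cells and ligation 0 passed in either direction by edgeR, DESeq2 or at an unadjusted p under 0.05. With 9.87% of all genes called there, a count of 0 among 4 genes is near that share. Cpt2 (ENSMUSG00000028607, chr4:107903981-107923610), which rebuilds acyl-CoA inside the mitochondrion, was at 173, 172 and 167 CPM in sham, 113, 102 and 97.5 after ligation and 114, 112 and 115 with cells. The cells libraries overlapped those of ligation, and all 6 stood below sham. Cpt2 fell after ligation (log2 fold change -0.72, SE 0.0612, edgeR adjusted p 7.98e-09), and its difference with cells was 0.13 (SE 0.0618, edgeR adjusted p 0.220). Cpt1b (ENSMUSG00000078937, chr15:89416405-89425863), the muscle form of the gatekeeper carnitine palmitoyltransferase 1, had 8.19, 8.07 and 5.24 CPM in sham, 1.49, 3.04 and 1.88 after ligation and 2.84, 3.75 and 3.17 with cells. It was lower after ligation (log2 fold change -1.70, SE 0.302, edgeR adjusted p 0.000132), but few counts were assigned to it in a gene whose exons mostly overlap another, so neither its level nor its change can be taken for that of the whole transcript.

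Cpt1a, the liver form, was not called in any comparison with TMM factors, but with library totals it was higher with cells than in sham (log2 fold change 0.26, edgeR adjusted p 0.0236). Its levels were 44.7, 45.3 and 50.5 CPM in sham, 44.96, 47.03 and 47.8 after ligation and 54.3, 43.4 and 52.9 with cells, with all groups overlapping, and its log2 fold change after ligation was -0.0052 (SE 0.0891, edgeR adjusted p 0.972). Crat, which exchanges short acyl groups between coenzyme A and carnitine, was at 393 ± 19.7 CPM (SD, n = 3) in sham, 345 ± 15.1 after ligation and 363 ± 10.4 with cells. It fell after ligation (log2 fold change -0.19, SE 0.0504, edgeR adjusted p 0.00575), a change that became 0.0014 with library totals. Crat did not pass between cells and ligation (edgeR adjusted p 0.427).

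Within the beta-oxidation spiral, Hadh and Acaa2 fell most after ligation and were not called with cells, while Hadha, Hadhb and Acadm fell less and were higher with cells. Of the 9 genes of the spiral, 6 were lower and 0 higher after ligation, where 18% of all genes were lower and 20.1% higher. With cells 4 were higher and 0 lower, against 4.19% and 5.69% of all genes. At an unadjusted p under 0.05 those numbers were the same, and DESeq2 also gave them. With library totals 2 were higher and 4 lower after ligation, against 35.9% and 9.74% of all genes. With cells against ligation 4 were then higher and 0 lower, against 3.15% and 6.71%. With cells against sham, 1 higher and 5 lower became 4 higher and 2 lower with library totals, against 33.4% and 12.3%. Hadh (ENSMUSG00000027984, chr3:131233419-131272101), the medium and short-chain hydroxyacyl-CoA dehydrogenase, was at 299, 270.3 and 280.0 CPM in sham, 147, 129.7 and 135 after ligation and 149, 149 and 142 with cells. Acaa2, the thiolase of the same chain lengths, was at 731, 808 and 777 CPM in sham, 369, 404 and 358 after ligation and 401, 403 and 412 with cells. In both, all 6 ligated libraries were far below sham and the ligation and cells libraries overlapped. Hadh fell by 1.05 and Acaa2 by 1.03 on the log2 scale after ligation (SE 0.0588 and 0.0505, edgeR adjusted p 1.44e-11 and 1.55e-12). Their differences between cells and ligation were 0.10 and 0.10, with edgeR adjusted p of 0.358 and 0.234.

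Hadha and Hadhb encode the 2 subunits of the trifunctional protein, which carries out the last 3 reactions on long chains, and lie side by side on chromosome 5. Hadha (ENSMUSG00000025745, chr5:30118304-30155162) was at 1002, 998 and 986 CPM in sham, 752, 749 and 724 after ligation and 825, 848 and 851 with cells. Hadhb (ENSMUSG00000059447, chr5:30155248-30184593) was at 1002, 1032 and 1019 CPM in sham, 775, 773 and 758 after ligation and 932, 877 and 984 with cells. In each the groups did not overlap and the cells libraries were in the middle. After ligation they fell by 0.43 and 0.41 on the log2 scale (SE 0.0377 and 0.0425, edgeR adjusted p 1.48e-08 and 1.64e-07). With cells they were higher by 0.18 and 0.28 (SE 0.0377 and 0.0424, edgeR adjusted p 0.00281 and 0.000145). Gm13910, with which Hadhb shares sequence, was itself at 174 ± 12.01 CPM (SD, n = 3) in sham, 179.9 ± 8.81 after ligation and 220.2 ± 6.93 with cells. It did not pass after ligation (log2 fold change 0.050, SE 0.0595, edgeR adjusted p 0.547) and was called higher with cells (log2 fold change 0.29, SE 0.0586, edgeR adjusted p 0.00204), so counts could be divided between the 2 and its part in the rise of Hadhb was not tested.

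The acyl-CoA dehydrogenases, which start each turn of the spiral, had log2 fold changes after ligation from -0.22 to -0.012. Acadvl (ENSMUSG00000018574, chr11:70010183-70015411), for very long chains, was at 225, 228 and 214 CPM in sham, 202, 226 and 232 after ligation and 275, 248 and 269 with cells. Sham and ligation overlapped, and the cells libraries were above both. It was higher with cells than after ligation (log2 fold change 0.26, SE 0.0586, edgeR adjusted p 0.00556) and than in sham (log2 fold change 0.25, SE 0.0587, edgeR adjusted p 0.00190). Dvl2, which overlaps it, stood at 7.77 to 11.9 CPM over all libraries. Acadm, for medium chains, fell after ligation from 850.1 ± 26.2 to 734 ± 28.1 CPM (SD, n = 3; log2 fold change -0.21, SE 0.0420, edgeR adjusted p 0.000392) and was at 834 ± 20.7 with cells, higher than after ligation (log2 fold change 0.18, SE 0.0419, edgeR adjusted p 0.00601). Acadl, for long chains, fell from 1136 ± 21.4 to 979 ± 65.3 CPM (log2 fold change -0.22, edgeR adjusted p 0.000944) and did not pass with cells, at 1035 ± 46.1 CPM. With library totals the falls of Acadm and Acadl became -0.026 and -0.029 and lost their calls (adjusted p 0.621 and 0.611). Acads, for short chains, and Echs1, the enoyl-CoA hydratase, passed in no comparison with TMM factors, with log2 fold changes of -0.041 and 9.85e-05 after ligation and edgeR adjusted p of 0.620 and 0.999. With library totals both were called higher with cells than in sham, by 0.18 and 0.25 (adjusted p 0.0187 and 0.000439).

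All 3 enzymes that prepare double bonds for the spiral fell after ligation, and 2 were higher with cells. The shares of all genes were 18% lower after ligation and 4.19% higher with cells. Eci1 (ENSMUSG00000024132, chr17:24426641-24439348), a mitochondrial enoyl-CoA isomerase, was at 344, 334 and 326 CPM in sham, 179, 169.9 and 176 after ligation and 206, 210.3 and 214 with cells. The groups did not overlap, and the cells libraries were closer to ligation than to sham. It fell by 0.94 on the log2 scale after ligation (SE 0.0490, edgeR adjusted p 5.02e-12) and was higher by 0.26 with cells (SE 0.0492, edgeR adjusted p 0.00106). Decr1, the mitochondrial dienoyl-CoA reductase, was at 328, 365 and 332 CPM in sham, 193, 201 and 175 after ligation and 228, 217 and 226 with cells, with the same order of groups. It fell by 0.85 after ligation on the log2 scale (edgeR adjusted p 3.11e-10) and was higher with cells (log2 fold change 0.24, SE 0.0586, edgeR adjusted p 0.0104), a call lost without ligation replicate 3 (adjusted p 0.0760). Eci2, a second isomerase, went from 103 ± 8.62 to 71.99 ± 1.97 CPM (SD, n = 3; log2 fold change -0.52, SE 0.0684, edgeR adjusted p 4.15e-06) and did not pass with cells, at 75.1 ± 2.07 CPM.

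The 3 electron transfer genes fell after ligation, and 1 was higher with cells, against 18% and 4.19% of all genes. Etfdh (ENSMUSG00000027809, chr3:79603788-79629500), the oxidoreductase that hands the electrons to ubiquinone, was at 359, 372 and 358 CPM in sham, 316, 327 and 290.2 after ligation and 381, 364 and 361 with cells. The ligation libraries were the lowest 3, and sham and cells overlapped. Etfdh fell after ligation (log2 fold change -0.22, SE 0.0505, edgeR adjusted p 0.00138), was higher with cells (log2 fold change 0.25, SE 0.0503, edgeR adjusted p 0.00253) and did not pass between cells and sham (edgeR adjusted p 0.754). With library totals Etfdh was called higher with cells than in sham (0.18, adjusted p 0.00473). Etfa, a subunit of the flavoprotein, fell from 561 ± 15.4 to 482 ± 32.6 CPM (SD, n = 3; log2 fold change -0.22, SE 0.0503, edgeR adjusted p 0.00144) and did not pass with cells, at 505 ± 19.1 CPM. With library totals the falls of Etfdh and Etfa were -0.037 and -0.035 and did not pass (adjusted p 0.577 and 0.573). Etfb, the other subunit, was assigned 36.5, 19.9 and 31.4 CPM in sham, 13.6, 9.26 and 6.25 after ligation and 11.8, 12.1 and 4.61 with cells. All 6 ligated libraries were below sham, with wide spread inside each group, and it was lower after ligation (log2 fold change -1.65, SE 0.271, edgeR adjusted p 5.59e-05). The annotated gene Gm45233, which covers most of its exons, had 0 counts in all 9 libraries.

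Of the 6 genes of storage and lipolysis, 3 fell after ligation and 2 of those were higher with cells. Among all genes 18% were lower after ligation and 4.19% higher with cells. Plin5 (ENSMUSG00000011305, chr17:56111601-56117596), the lipid droplet coat protein of oxidative tissue that ties droplets to mitochondria, was at 124, 128 and 122 CPM in sham, 63.5, 62.5 and 59.9 after ligation and 76.5, 75.9 and 76.5 with cells. Each group was tight and none overlapped. Plin5 fell after ligation (log2 fold change -1.01, SE 0.0605, edgeR adjusted p 3.77e-11) and was higher with cells (log2 fold change 0.30, SE 0.0618, edgeR adjusted p 0.00248). Dgat2 (ENSMUSG00000030747, chr7:99153658-99182719), which makes triglyceride, was at 218, 221 and 226 CPM in sham, 118, 124 and 117 after ligation and 141, 134 and 140.3 with cells, also without overlap. It fell by 0.89 on the log2 scale after ligation (edgeR adjusted p 4.20e-11) and was higher with cells (log2 fold change 0.21, SE 0.0540, edgeR adjusted p 0.0157). The second call was lost without ligation replicate 3 (adjusted p 0.0677), cells replicate 1 (0.0682) or cells replicate 3 (0.0634). Dgat1, the other enzyme of this reaction, did not pass in any comparison and was at 27.9 ± 3.13, 24.99 ± 2.93 and 26.4 ± 2.81 CPM (SD, n = 3) in sham, ligation and cells.

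Lipe, hormone-sensitive lipase, was at 78.1, 71.8 and 57.9 CPM in sham, 40.7, 45.4 and 48.2 after ligation and 40.99, 40.9 and 40.5 with cells. Lipe fell after ligation (log2 fold change -0.62, SE 0.0943, edgeR adjusted p 2.46e-05), and the cells libraries were not above those of ligation (log2 fold change -0.15, SE 0.0979, edgeR adjusted p 0.418). Pnpla2, adipose triglyceride lipase, which starts triglyceride breakdown, was at 306, 341 and 305 CPM in sham, 285, 295 and 290.5 after ligation and 294, 261 and 279 with cells. Every ligation library was below every sham library, but the difference did not pass (log2 fold change -0.13, SE 0.0551, edgeR adjusted p 0.0709). It passed with mitochondrially encoded genes removed (adjusted p 0.0381) and in a fit of the 2 groups alone (0.0436), and with library totals its change was 0.058. Plin2, the coat protein found in most tissues, did not pass in any comparison with TMM factors, at 56.9 ± 3.16, 59.7 ± 3.55 and 61.4 ± 1.02 CPM (SD, n = 3) in sham, ligation and cells.

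**Figure D4:**
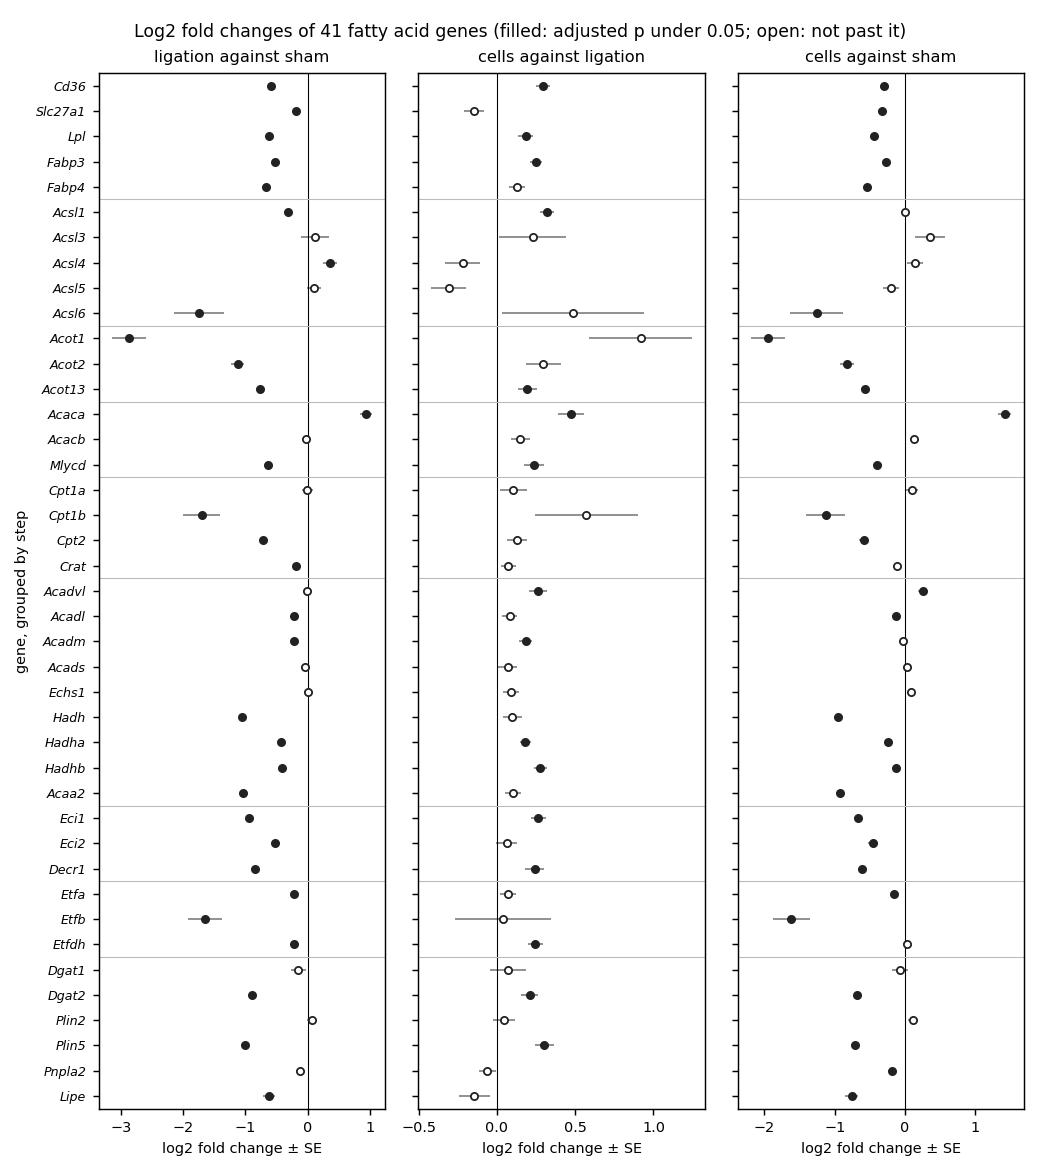
Log2 fold changes with their SE for the 41 genes in the 3 comparisons, grouped by step; filled points passed an adjusted p of 0.05, and the 3 panels have different axes. Most points of ligation against sham lie left of 0 down to -2.87 for Acot1, all filled points of cells against ligation lie right of 0, and the filled points right of 0 in cells against sham are Acaca and Acadvl.

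Against sham, hearts with cells still had lower levels of most of these genes. By edgeR's test 26 of the 41 were lower, 2 higher and 13 did not pass, where 40.9% of all genes were called, 20% lower and 21% higher. The median log2 fold change was -0.28, against -0.0073 over all genes. With library totals it was -0.117, against 0.151 over all genes. In 26 genes all cells libraries were below all sham libraries and in 3 above, against 24.5% and 25.4% of all genes. The 2 higher genes were Acaca (log2 fold change 1.42, SE 0.0934, edgeR adjusted p 1.46e-10) and Acadvl. The largest falls in assigned counts, uncertain for Etfb and Cpt1b because of their overlaps, were in Acot1 (log2 fold change -1.95, SE 0.242, edgeR adjusted p 1.63e-06), Etfb (-1.62), Acsl6 (-1.26), Cpt1b (-1.13), Hadh (-0.95) and Acaa2 (-0.93). Mean levels of Hadh and Acaa2 were 51.8% and 52.5% of sham with cells and 48.5% and 48.9% after ligation. For Cd36 they were 81.3% and 66.3%, and for Hadhb 91.5% and 75.5%.

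Some of the falls against sham rest on single libraries or on the scaling. Acadl, Hadhb and Etfa changed sign with library totals, to 0.024, 0.030 and 0.0065, from -0.13, -0.13 and -0.15. Acadl lost its call without sham replicate 1 (edgeR adjusted p 0.0789), cells replicate 1 (0.115) or cells replicate 3 (0.0784). Hadhb did so without sham replicate 2 (0.0557), cells replicate 1 (0.0503) or cells replicate 2 (0.126), all edgeR adjusted p. Etfa lost its call without sham replicate 3 (0.0738), cells replicate 1 (0.0648) or cells replicate 3 (0.0851). Acsl6, among the largest falls, lost its call without sham replicate 3 (0.0636), cells replicate 1 (0.0603) or cells replicate 2 (0.0532). Pnpla2 (log2 fold change -0.19, SE 0.0550, edgeR adjusted p 0.00864) lost its call without sham replicate 2 (0.0567) or cells replicate 2 (0.0552), and with library totals (0.682). Hadha missed the threshold with library totals (0.0640). Acacb, Acsl5 and Crat, not called with all libraries, each passed in 1 or more fits without 1 library.

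Library totals, in place of TMM factors, shifted the median of all genes by 0.19, -0.03 and 0.16 on the log2 scale in the 3 comparisons. On that scale 7 of the 41 genes were higher and 23 lower after ligation, against 35.9% and 9.74% of all genes. With cells against ligation 15 were higher and 0 lower, against 3.15% and 6.71%. With cells against sham 11 were higher and 21 lower, against 33.4% and 12.3%. The 7 higher after ligation were Acaca, Acsl4, Acsl5 (0.30), Acacb, Acadvl (0.18), Echs1 (0.19) and Plin2 (0.25). Against sham, Acadm with cells turned from -0.028 to 0.13 and passed (edgeR adjusted p 0.00929). The 11 higher with cells than in sham were Acaca, Acadvl, Acadm, Acsl1, Cpt1a, Acads, Echs1, Etfdh, Acsl4 (0.30), Acacb (0.28) and Plin2 (0.27). The changes in the text are therefore relative to the median gene.

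A further 82 genes of the same and neighbouring pathways were listed, of which 79 could be tested. After ligation 17 were higher and 27 lower, with cells against ligation 18 higher and 2 lower, and with cells against sham 23 higher and 22 lower, all by edgeR. Over all genes 38.2%, 9.87% and 40.9% were called in the 3 comparisons. The 20 called with cells against ligation became 12 without ligation replicate 2 or ligation replicate 3 and 13 without cells replicate 2 or with header stems summed. With library totals the higher and lower numbers were 36 and 15, 12 and 2, and 33 and 14. The shares of all genes were then 35.9% and 9.74%, 3.15% and 6.71%, and 33.4% and 12.3%. The mitochondrial carnitine and oxidation genes outside the 41 had 1 higher and 6 lower of 13 after ligation and 4 higher and 0 lower with cells. With library totals 4 were higher and 3 lower after ligation, where 35.9% of all genes were higher and 9.74% lower. On that scale 2 were higher and 0 lower with cells, against 3.15% and 6.71% of all genes. DESeq2 gave 4 and 0 with cells, as did an unadjusted p under 0.05. Ech1, an isomerase of unsaturated chains, fell most of them. It was at 1499.8, 1485 and 1473 CPM in sham, 656, 642 and 638 after ligation and 767, 752 and 742 with cells (log2 fold change -1.20, SE 0.0369, edgeR adjusted p 7.90e-16 after ligation; log2 fold change 0.22, SE 0.0366, edgeR adjusted p 0.000284 with cells). Slc25a20, the carnitine-acylcarnitine carrier of the inner membrane, was at 144, 135 and 145 CPM in sham, 104, 99.6 and 93.4 after ligation and 118, 113 and 111 with cells. It fell after ligation (log2 fold change -0.52, SE 0.0610, edgeR adjusted p 8.78e-07). Its rise with cells (log2 fold change 0.21, SE 0.0611, edgeR adjusted p 0.0332) was lost with library totals (adjusted p 0.0630), with header stems summed (0.0785) and without any 1 ligation or cells library other than ligation replicate 1, with adjusted p from 0.0594 to 0.168.

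On the capillary side, Gpihbp1, which holds lipoprotein lipase on the endothelium, was at 188, 212 and 194 CPM in sham, 112, 111 and 113 after ligation and 109.9, 81.8 and 97.1 with cells. It fell after ligation (log2 fold change -0.82, SE 0.0788, edgeR adjusted p 4.54e-08) and was not called with cells, where the difference was -0.22 (edgeR adjusted p 0.0955). Without cells replicate 1 it was lower with cells than after ligation (adjusted p 0.0132), as it was with no filter on low counts (0.0200). Angptl4, an inhibitor of the lipase, had few counts, 5.58 ± 1.71, 6.76 ± 0.979 and 5.62 ± 0.624 CPM (SD, n = 3), and passed in no comparison. Fitm1, a protein of lipid droplet formation in muscle, fell by 0.91 on the log2 scale after ligation (edgeR adjusted p 3.19e-09). With cells the difference was 0.0013 (edgeR adjusted p 0.995), at 48.2 ± 3.57 and 48.04 ± 1.68 CPM.

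After ligation, genes of fatty acid synthesis went the other way from most of the 41: 6 of 10 were higher and 1 lower, with a median log2 fold change of 0.47. With cells against ligation 2 were higher and 0 lower, with a median of 0.013. Over all genes 20.1% were higher and 18% lower after ligation, and 4.19% and 5.69% with cells. With library totals 9 were higher and 0 lower after ligation, against 35.9% and 9.74% of all genes. For cells against ligation DESeq2 also called 2 and 0 of these, and at an unadjusted p under 0.05 there were 2 and 2. Scd1, which desaturates stearate, was at 37.9, 42.3 and 43.3 CPM in sham, 262, 263 and 265 after ligation and 277, 278 and 294 with cells. It rose by 2.67 on the log2 scale after ligation (SE 0.0615, edgeR adjusted p 8.00e-18). Fasn, fatty acid synthase, had 40.05, 41.7 and 41.4 CPM in sham, 136, 138 and 151 after ligation and 232, 235 and 254 with cells. Its groups rose in the order sham, ligation, cells, as those of Acaca did (log2 fold change 1.79, SE 0.0674, edgeR adjusted p 2.48e-14 after ligation; log2 fold change 0.76, SE 0.0588, edgeR adjusted p 1.42e-08 with cells). Plin1 and Cidec, lipid droplet proteins best known from adipocytes, rose by 3.69 and 2.91 after ligation (SE 0.368 and 0.221, edgeR adjusted p 7.99e-08 and 1.37e-09). Plin1 went from 1.09 ± 0.568 to 14.4 ± 3.91 CPM (SD, n = 3) and was at 15.7 ± 5.63 with cells.

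Most adipocyte markers were also higher after ligation. The summed level of the 9 markers was 51.4 to 56.8 CPM in the sham libraries, 240.2 to 254 after ligation and 232 to 256 with cells. Of the 8 markers that could be tested 6 were higher and 1 lower after ligation, with a median log2 fold change of 3.09. The lower one was Cidea, which made up most of the sum in sham, at 39.9, 38.5 and 35.2 CPM, and was at 27.9, 30.1 and 27.9 after ligation. The adipocyte sums of ligation and cells overlapped. Between cells and ligation 0 of the adipocyte markers passed either way by edgeR or DESeq2, and 1 was lower at an unadjusted p under 0.05. Plin1, Cidec and Cidea are also among the listed storage genes, and Ucp1 was at 0 in 8 of the 9 libraries. The part of adipocyte RNA in the rises of Acaca, Fasn and Scd1, or in the levels of Fabp4, Lipe, Dgat2 and Lpl, was not tested.

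**Figure D5:**
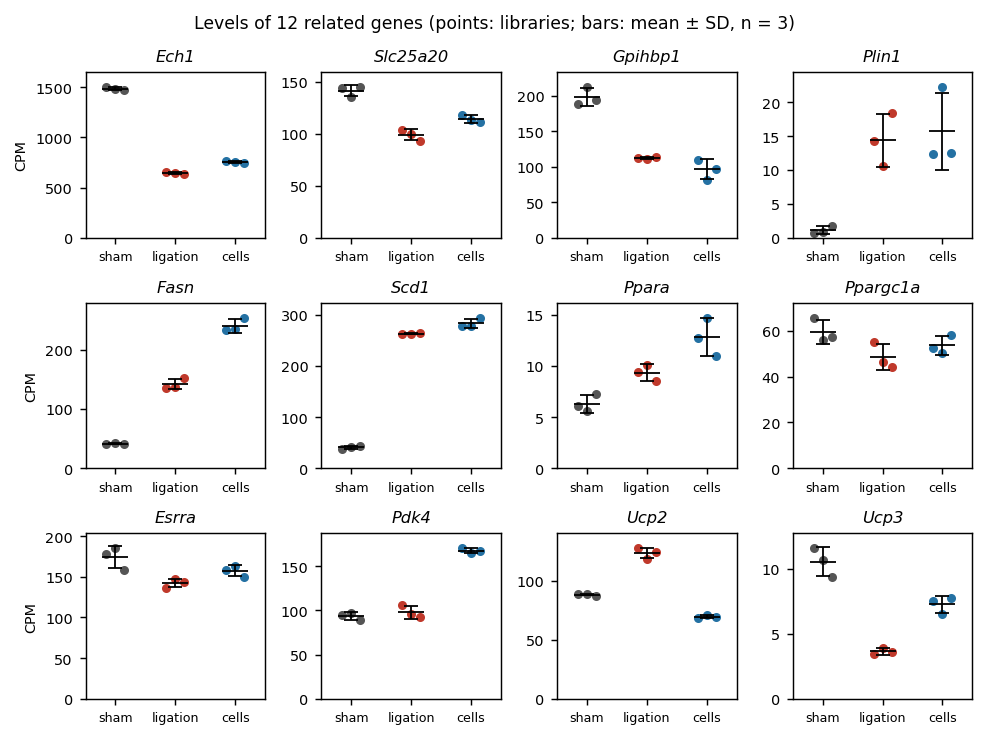
Levels in CPM of 12 genes outside the 41, 1 panel per gene with its own axis from 0; points are libraries and bars the mean ± SD of 3. Ech1, Slc25a20 and Gpihbp1 are highest in sham, Fasn and Pdk4 are highest with cells, and Ucp2 is highest after ligation, at 127, 119 and 124 CPM.

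Among regulators, Ppara, the nuclear receptor that drives many of these genes, did not follow them. It was at 6.05, 5.60 and 7.30 CPM in sham, 9.38, 10.1 and 8.50 after ligation and 12.8, 14.7 and 10.9 with cells. Ppara was higher after ligation (log2 fold change 0.55, SE 0.190, edgeR adjusted p 0.0263), not past the threshold between cells and ligation (log2 fold change 0.46, SE 0.167, edgeR adjusted p 0.0919), and higher with cells than in sham (log2 fold change 1.02, SE 0.180, edgeR adjusted p 0.000123). The rise after ligation did not pass with DESeq2 (adjusted p 0.0664), with header stems summed (0.0722), or without sham replicate 1 (0.0707), sham replicate 2 (0.0932) or ligation replicate 2 (0.0946).

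Ppargc1a, which encodes PGC-1 alpha, was at 65.7, 55.8 and 57.1 CPM in sham, 55.2, 46.3 and 44.2 after ligation and 52.5, 50.4 and 58.3 with cells. It was lower after ligation (log2 fold change -0.31, SE 0.0910, edgeR adjusted p 0.0111), a call lost with library totals (adjusted p 0.298) and without sham replicate 1 (0.0750), ligation replicate 2 (0.0541) or ligation replicate 3 (0.0565). Esrra, estrogen-related receptor alpha, was at 178, 185 and 159 CPM in sham, 136, 147 and 144 after ligation and 159, 163 and 150.1 with cells. Esrra fell after ligation (log2 fold change -0.29, SE 0.0626, edgeR adjusted p 0.00100) and did not pass with cells (log2 fold change 0.14, SE 0.0624, edgeR adjusted p 0.171). With library totals its fall was -0.10 and did not pass (adjusted p 0.219).

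Pdk4 and Ucp3 are known to respond to fatty acids, and Pdk4 encodes a kinase that blocks pyruvate oxidation. Pdk4 was at 94.3, 97.2 and 89.2 CPM in sham, 106, 95.6 and 92.1 after ligation and 170.2, 165 and 168 with cells. Sham and ligation overlapped and the cells libraries were well above both (log2 fold change 0.78, SE 0.0619, edgeR adjusted p 2.13e-08 against ligation). With library totals Pdk4 was also called higher after ligation (0.25, adjusted p 0.00313). Ucp3, an uncoupling protein of muscle mitochondria, was at 11.6, 10.7 and 9.37 CPM in sham, 3.41, 3.91 and 3.62 after ligation and 7.52, 6.52 and 7.78 with cells. Ucp3 fell after ligation (log2 fold change -1.52, SE 0.205, edgeR adjusted p 5.38e-06) and was higher with cells (log2 fold change 0.98, SE 0.212, edgeR adjusted p 0.00389). Ucp2, which is abundant in macrophages, moved the opposite way, at 88.6, 88.6 and 87.5 CPM in sham, 127, 119 and 124 after ligation and 68.4, 70.9 and 68.9 with cells (log2 fold change -0.83, SE 0.0594, edgeR adjusted p 4.29e-09 with cells). Klf15, a regulator of cardiac lipid use, was lower with cells (log2 fold change -0.30, SE 0.0949, edgeR adjusted p 0.0486). That call was lost in 8 of 9 fits without 1 library, all but the one without cells replicate 2, with adjusted p from 0.0508 to 0.278. It was also lost with DESeq2 (0.129), DESeq2 size factors in edgeR (0.0529), a fit of the 2 groups alone (0.0710), a replicate block (0.0602) and header stems summed (0.0889).

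Mitochondrial genes outside fatty acid oxidation also changed. Of 16 such genes (Krebs cycle, import, outer membrane and dynamics), 8 were lower and 2 higher after ligation, against 18% and 20.1% of all genes. The median log2 fold change was -0.16 beside -0.43 for the 41 fatty acid genes. With cells against ligation 5 were higher and 0 lower, against 4.19% and 5.69% of all genes, with a median of 0.11 beside 0.18. DESeq2 called 6 higher and 0 lower there, and 8 higher and 0 lower had an unadjusted p under 0.05. With library totals 7 were higher and 4 lower after ligation, against 35.9% and 9.74% of all genes. The difference between the 2 lists was not tested. Hspd1, a mitochondrial chaperone, fell by 0.64 and Mdh2, malate dehydrogenase, by 0.37 on the log2 scale after ligation, with edgeR adjusted p of 2.11e-08 and 1.64e-07. Both were chosen after their values were seen.

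Markers of cell types moved with the same comparisons. Of 10 cardiomyocyte markers 6 were lower and 1 higher after ligation, and 1 was lower and 1 higher with cells against ligation. With library totals those numbers were 4 and 5, and 4 and 0. Their summed level with cells, 47815 to 48915 CPM, overlapped that after ligation. Of 10 endothelial markers 9 were lower and 1 higher after ligation, and 3 were higher and 1 lower with cells. They summed to 2359 to 2489 CPM in sham, 1635 to 1743 after ligation and 1756 to 1807 with cells. Macrophage and monocyte markers summed to 675 to 731, 1229 to 1259.5 and 505 to 518 CPM, with 9 of 10 higher after ligation and 10 of 10 lower with cells. Fibroblast markers summed to 2529 to 2592, 4505 to 4589 and 4224 to 4337 CPM, with 7 of 10 higher after ligation and 2 lower with cells. Smooth muscle and pericyte markers, of which 7 of 8 were tested, summed to 1796 to 1849, 1291 to 1322 and 1288 to 1319 CPM. Among these 7, 1 was higher and 5 were lower after ligation, and 1 was higher and 2 were lower with cells. The part of these shifts in the levels of the fatty acid genes was not tested.

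Neutrophil markers summed to 38.1 to 46.3, 15.98 to 24.2 and 5.47 to 6.52 CPM in sham, ligation and cells, with Ly6g, Retnlg and Mmp9 at 0 in some libraries. Of the 4 tested, 1 was higher and 2 were lower after ligation, and 0 were higher and 4 lower with cells against ligation. Erythroid markers summed to 871 to 919 CPM in sham, 1496 to 1596 after ligation and 663 to 679.6 with cells. They did not all move together after ligation: of the 5 tested, 4 were higher and 1 was lower, by 5.07 on the log2 scale. With cells against ligation 0 were higher and 4 lower. Fast skeletal muscle markers summed to 3228 to 3270.1, 2748 to 2804 and 3319 to 3399 CPM, nearly all from Ckmt2 and Acta1, which the heart also expresses. Of the 5 tested, 3 were higher and 1 lower after ligation, and 1 was higher and 2 lower with cells. Acta1 was at 907, 972 and 964 CPM in sham, 1209.6, 1257 and 1308 after ligation and 1846, 1854 and 1815 with cells. Ckmt2 was at 2338, 2253 and 2303 CPM in sham, 1528, 1539 and 1446 after ligation and 1529, 1543 and 1501 with cells, so the 2 moved apart within the sum. The markers Myh1, Myh2, Myh4 and Pvalb were at 0 in some libraries.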

How the data were processed

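The deposited files hold 1 gene count table per library, whole numbers of reads per mouse Ensembl gene ID that the authors did not normalize. Per the labels' protocols, RNA was taken up in TRIzol and libraries were made with a NEBNext Ultra kit, and the submitters' processing notes name the mm10 build. The aligner, the counting program, its strand setting and the annotation release are not given in the sources used here. Rows that name no gene were left out of library sizes. As a share of gene counts and these rows together, reads ambiguous between genes came to 8.09% to 8.72% and reads outside genes to 4.14% to 4.91%.

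Groups follow the titles and treatment labels. Genes passing edgeR's filterByExpr with its default settings (13825) were scaled with TMM factors and fitted with edgeR 4.0.16 (glmQLFit and glmQLFTest, R 4.3.3) on all 9 libraries, with 6 residual degrees of freedom. P-values were adjusted by Benjamini-Hochberg over all 13825 genes, and a gene was called at an adjusted p under 0.05. CPM use the TMM-scaled library sizes. The SE of a log2 fold change is its size divided by the root of the F statistic. The common biological coefficient of variation was 0.0726. A level of 3 counts, the limit that a count of 0 allows, is 0.375 to 0.639 CPM, for counting error only. Gene positions, exon lengths, exon overlaps and shared 31-base words come from GENCODE M21 (GRCm38), and symbols were found for 53274 of the 53465 IDs. Promoters are those of the RefSeq table (GRCm38.p6), which has none for 9 of the 41 genes. Figures were drawn with matplotlib 3.10.9. The fit was tested on simulated data of 13825 genes, of which 200 were changed by 1 on the log2 scale. For ligation against sham it called 153 of the 200 with the right sign, and also 14 unchanged genes.

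The 41 genes and all lists were chosen with earlier results of these data known. All 41 are named. Of the other pathway genes the text names Ppara, Ppargc1a, Esrra, Slc25a20, Pdk4, Angptl4 and Gpihbp1 whatever their values. It also names, per comparison, the 3 called genes with the largest rise and the 3 with the largest fall among those averaging at least 1 CPM. Alternatives were library totals, DESeq2 size factors, no filter, mitochondrially encoded genes removed, DESeq2 1.42.0, fits of 2 groups, a replicate block and each library left out. Chosen after seeing the data were summing libraries of one header stem and leaving out genes with shared sequence.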

Additional observations from a re-analysis of the deposited data

How the results depend on the processing

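The number of the 41 genes called stayed within 1.5 times its main value of 31, 16 and 28 (ligation against sham, cells against ligation, cells against sham) under every alternative run except 1. That was leaving out genes with shared sequence in cells against sham, where 17 of 29 were called. Leaving out 1 library gave 29 to 31, 13 to 16 and 24 to 29. For the other pathway genes it gave 38 to 45, 12 to 19 and 41 to 48, the main values being 44, 20 and 45. In cells against ligation it was 12 without ligation replicate 2 or 3, 13 without cells replicate 2, and 13 with header stems summed. The median log2 fold change of the 41 genes was -0.238, 0.153 and -0.117 with library totals. In cells against sham it was -0.293 with mitochondrially encoded genes removed and -0.303 with header stems summed. Without 1 library it ranged over -0.435 to -0.421, 0.144 to 0.197 and -0.295 to -0.259. As shares of all gene counts, mitochondrially encoded ones included, the 41 genes took 1.95%, 1.57% and 1.76%. The causes of these shifts were not tested.

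Over all genes tested, same-numbered libraries did not deviate together (correlations -0.0544 to 0.0589). A link between them that acts on few genes could be missed by such a correlation, so pairing is not excluded. With a replicate block 31, 15 and 28 of the 41 genes were called, and Acot13 and Klf15 lost their calls in cells against ligation (edgeR adjusted p 0.0629 and 0.0602). Log2 fold changes that changed sign are given by setting. With library totals they were Slc27a1 0.0088, Acacb 0.16, Cpt1a 0.18, Crat 0.0014, Acadvl 0.18, Acads 0.15, Dgat1 0.042 and Pnpla2 0.058 (ligation against sham), Fitm1 -0.028 (cells against ligation) and Crat 0.045, Acadl 0.024, Acadm 0.13, Hadhb 0.030, Etfa 0.0065, Dgat1 0.081, Ppargc1a 0.012 and Esrra 0.014 (cells against sham). With no filter they were Cpt1a 0.0034 (ligation against sham). With DESeq2 size factors in edgeR they were Echs1 -0.0077 (ligation against sham). With mitochondrially encoded genes removed they were Echs1 -0.016 (ligation against sham) and Acsl1 -0.011 and Angptl4 -0.0043 (cells against sham). With DESeq2 they were Echs1 -0.0080 (ligation against sham) and Etfb -0.020 (cells against ligation). With fits of 2 groups they were Echs1 -0.015 (ligation against sham) and Fitm1 -0.0012 (cells against ligation). With header stems summed they were Echs1 -0.029 (ligation against sham), Etfb -0.011 and Fitm1 -0.0091 (cells against ligation) and Acsl1 -0.022 and Angptl4 -0.024 (cells against sham). With the replicate block they were Etfb -0.0010 and Fitm1 -0.0013 (cells against ligation). Leaving out 1 library turned the sign of others, with these ranges. For ligation against sham these were Acsl5 -0.011 to 0.17, Acacb -0.070 to 0.021, Cpt1a -0.042 to 0.054, Acadvl -0.070 to 0.045, Echs1 -0.050 to 0.038 and Klf15 -0.052 to 0.10. For cells against ligation these were Acsl6 -0.18 to 0.74, Etfb -0.23 to 0.36, Dgat1 -0.0032 to 0.15, Plin2 -0.0020 to 0.079, Plin1 -0.22 to 0.36, Cidec -0.11 to 0.047 and Fitm1 -0.062 to 0.038. For cells against sham these were Acsl1 -0.023 to 0.031, Etfdh -0.00067 to 0.038, Dgat1 -0.14 to 0.017 and Angptl4 -0.22 to 0.16. The genes with the fewest counts, such as Acsl6, Acot1 and Cpt1b, have wide errors.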

Other observations

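Peroxisomes shorten very long and branched chains before mitochondria take over. Of 13 peroxisomal oxidation genes 11 could be tested. After ligation 1 was higher and 2 were lower by edgeR, with cells against ligation 2 were higher and 0 lower, and with cells against sham 4 were higher and 1 lower. Over all genes tested 38.2%, 9.87% and 40.9% were called, so these counts are near or below that share in the first and last comparison. With library totals 5 were higher and 0 lower after ligation, against 35.9% and 9.74% of all genes, and 0 passed either way with cells against ligation. For cells against ligation DESeq2 called 0 either way, and 2 were higher and 1 lower at an unadjusted p under 0.05. The summed level of the peroxisomal genes was 945, 923 and 923 CPM in sham, 958, 932 and 871 after ligation and 975, 956 and 952 with cells, so sham and ligation overlapped. Among 15 further storage and lipolysis genes 4 were higher and 7 lower after ligation, and 6 were higher and 0 lower with cells against ligation by edgeR and by DESeq2. With library totals 6 were higher and 4 lower after ligation, where 35.9% of all genes were higher and 9.74% lower. They summed to 1343, 1339 and 1292 CPM in sham, 1058, 1062 and 1058 after ligation and 1185, 1179 and 1176 with cells, and the 3 groups did not overlap.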
